A study of Mus musculus with 3 samples.

Results

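The expression of 43 interferon-stimulated genes and of the factors that regulate them was followed in mouse LT-HSCs (long-term hematopoietic stem cells), the bone marrow cells that renew themselves and supply all blood lineages. The genes were taken as a named list and matched to the gene names of the array, where all 43 were found among 37072 genes. Where several probes read a gene, the probe with the highest mean signal over the 3 arrays stood for it, and its other probes served as a check. The LT-HSCs were sorted as CD150+CD48-Flt3-CD34- LSK cells per the labels, to which the methods add a gate against CD41, where LSK stands for cells without lineage markers that carry Sca-1 and c-Kit, from the bone marrow of C57BL/6J mice. WT cells came from control mice. AtmsKO cells came from mice that had lost Atm, the gene of a kinase that signals DNA breaks. Atmp38dKO cells came from mice that had lost Atm together with Mapk14, the gene of p38α. The labels give an age of 11 weeks in every group, whereas the series text places tamoxifen at about 5 weeks of age and the analysis 4 weeks afterwards. Deletion used a tamoxifen-inducible CreERT2 under the CAG promoter, which is active in most cell types, so recombination was not limited to stem cells and could also take place in the host's niche. Per the methods, controls were floxed mice that received tamoxifen but carried no Cre transgene, so the Cre transgene itself also separated both mutant groups from WT. The number and sex of the mice behind an array are not stated. Each group was measured on 1 Agilent array, and the arrays shared a slide and a scan. With no replicates, no test was possible, and every difference below is one between these arrays.

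Interferons are secreted proteins that warn cells of infection. Type I interferon binds the receptor Ifnar1 and Ifnar2, the kinases Jak1 and Tyk2 pass the signal on, and a complex that holds Stat2 and Irf9 binds the interferon-stimulated response element (ISRE) of its target genes. Interferon gamma acts on genes that carry the gamma-activated site (GAS). The targets include sensors of viral RNA, enzymes and GTPases that block replication, and the machinery that loads peptides on MHC class I. In the stem cell field the pathway is known because interferon can drive quiescent HSCs into the cell cycle, because HSCs hold part of this program active at rest, and because loss of Irf2, Irgm1 or Adar disturbs HSC maintenance.

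What the genes share in sequence was examined first, since the choice of the list did not use it. The RefSeq promoter windows (assembly GRCm38.p6, 250 bases before to 50 bases after a start site) covered 35 of the 43 genes. The ISRE-like motif, which is GAAA, any 2 bases and GAAA, or on the other strand TTTC, any 2 bases and TTTC, was present in 16 of these 35 (45.7%), against 3.99% of all 27025 genes in the table. The GAS-like motif, which is TTC, any 3 bases and GAA and reads alike on both strands, was present in 13 of 35 (37.1%) against 9.55%. Both strands were searched, and matches may overlap, as an ISRE-like and a GAS-like match did in 1 window of these genes. Such a match is a string of letters and not a measured binding site.

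The windows below are shown because they belong to genes whose values the results turn on. Ifit1 and Ifit3 lie on chromosome 19 (chr19:34640765-34640833 and chr19:34583353-34583436, both plus strand), Isg15 on chromosome 4 (chr4:156200855-156200916, minus strand), Oas3 on chromosome 5 (chr5:120777705-120777754, minus strand), Rsad2 on chromosome 12 (chr12:26456543-26456592, minus strand) and Stat2 on chromosome 10 (chr10:128270256-128270305, plus strand). Irf1 lies on chromosome 11 (chr11:53769904-53769952, plus strand) and Irf8 on chromosome 8 (chr8:120736167-120736233, plus strand). All stretches end upstream of the start site and are written 5′ to 3′ on the strand of the gene. Capitals mark the ISRE-like matches in the first 6 lines and the GAS-like matches in the lines of Irf1 and Irf8.
Ifit1: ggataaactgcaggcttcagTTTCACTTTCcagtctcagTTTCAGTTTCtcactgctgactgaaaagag
Ifit3: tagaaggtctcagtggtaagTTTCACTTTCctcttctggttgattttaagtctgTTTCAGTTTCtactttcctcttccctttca
Isg15: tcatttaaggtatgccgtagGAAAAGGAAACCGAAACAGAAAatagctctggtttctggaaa
Oas3: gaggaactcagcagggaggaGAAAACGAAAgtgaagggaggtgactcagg
Rsad2: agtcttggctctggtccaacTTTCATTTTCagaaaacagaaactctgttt
Stat2: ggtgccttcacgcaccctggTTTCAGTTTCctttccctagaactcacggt
Irf1: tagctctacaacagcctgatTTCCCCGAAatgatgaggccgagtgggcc
Irf8: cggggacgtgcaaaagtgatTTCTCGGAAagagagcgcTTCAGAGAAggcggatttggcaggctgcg

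The Ifit1 window holds 2 ISRE-like matches that begin 104 and 85 bases before the start site, and the Ifit3 window holds 2 that begin 156 and 122 bases before it. In Isg15, 3 matches overlap in a single run that begins 78 bases before the start site. Irf7, Znfx1 and Oasl1, which carried some of the largest differences below, had no match to either motif in their windows. The 16 genes with an ISRE-like match had a median log2 difference of 0.11 for AtmsKO minus WT, with 9 of them higher, and the 19 without one had a median of 0.19, with 15 higher. For the Atmp38dKO-labelled array minus WT the medians were -0.10 and 0.14, with 5 of 16 and 13 of 19 higher.

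**Figure D1:**
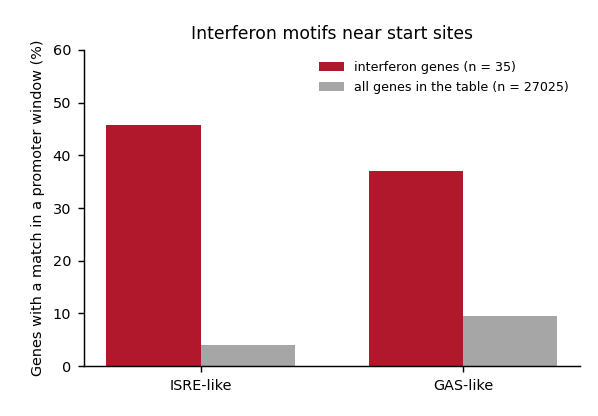
Share of genes (%) with at least 1 match to the ISRE-like or the GAS-like motif in a promoter window, for the 35 interferon genes with a window (red) and all 27025 genes in the table (grey). The interferon genes reach 45.7% and 37.1%, and all genes 3.99% and 9.55%.

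The arrays were checked for what they can show. Atm, at its brightest probe, read 87 units in WT, 23.9 in AtmsKO and 86.5 in Atmp38dKO. Its other probe read 88.8, 16.3 and 49 units. Mapk14 had 469, 558 and 616 in this order, and at its other probe 295, 260 and 345. Atm was thus low in AtmsKO at both probes. On the third array the brightest Atm probe lay near WT (log2 difference -0.22) and the other one was lower (-1.07). At neither Mapk14 probe was the third array lower than WT after scaling (log2 differences 0.18 and 0.01). The third array goes against its label for Mapk14 and, at the brightest probe, for Atm. It is named the Atmp38dKO-labelled array below. Which exons of Mapk14 were removed is not stated in the sources used here, and a probe outside them would still read the message. Both Atm probes did read low in AtmsKO, with log2 differences of -1.79 and -2.37 from WT. On the third array the same probes lay 1.57 and 1.30 above AtmsKO, and the reason was not tested. The share of genes well above background, the scanner's flag for detection, was between 71.3% and 79.7% per array, and 68.5% of genes carried it on all 3 arrays. All 12 LT-HSC markers examined, among them Procr, Hlf, Mecom and Kit, were well above background on every array. On the Atmp38dKO-labelled array 10 of these 12 were lower than in WT (median -0.25) and 10 of 12 lower than in AtmsKO (median -0.27), and Fgd5 (-1.72) and Hoxb5 (-1.64) were more than 2-fold lower than in WT. In AtmsKO 8 of the 12 were higher than in WT (median 0.09). The part of this difference between the sorted cells in the interferon results was not tested. Also well above background were the 3 genes of surface proteins that the labels name as sorted against, with signals of 17.2 to 34 for Cd48, 70.3 to 101 for Flt3 and 1666 to 2185 for Cd34. Signals are given in intensity units as the scanner software reports them. Differences are log2 differences after each array was scaled to its 75th percentile, which was 102 units for WT, 96.2 for AtmsKO and 118 for the third array, so that equal signals on 2 arrays are not equal levels. A percentile scale shows relative levels only, and in RNA from sorted cells, fewer cells of a kind and less RNA per cell cannot be told apart.

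All 43 interferon genes were well above background on all 3 arrays, and each could be compared in all 3 comparisons. The error of a single log2 difference, from the scanner's own error model, was between 0.20 and 0.38 for AtmsKO minus WT. Spots of probes printed 10 times differed by a median SD of 0.053 to 0.055 on the log2 scale. Both errors cover the array only, and no spread between mice was measured. Signals of different genes were read by different probes and are not set against each other.

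The arrays were ranked for each gene. Of the 43 genes, 25 (58.1%) had their highest normalized signal on the AtmsKO array, 9 on the WT array and 9 on the Atmp38dKO-labelled array. Of all 25391 genes well above background on all arrays, 35% were highest on the AtmsKO array. The WT array was the lowest for 17 of the 43 genes (39.5%), near the share among all genes (35.8%).

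For AtmsKO minus WT the median of the 43 log2 differences was 0.19, against 0.01 over all 28866 genes tested, and the middle 50% of the interferon genes lay between -0.07 and 0.51 (all genes -0.24 to 0.25). In this comparison 29 of the 43 genes (67.4%) were higher on the AtmsKO array, where 51% of all genes were. At least 2-fold higher were 5 genes, where 3.94% of all genes passed the same limit, and 1 gene was at least 2-fold lower, where 4.09% of all genes were. The genes past 2-fold were Znfx1, Ifit1, Irf7, Oasl1 and Irf8 on the higher side and Ifit3 on the lower side. Of these 6 genes, 5 were among the 12 interferon genes with a mean signal under 50 units, and only Irf7 lay above it. Among all genes dimmer than 50 units 13.3% passed 2-fold in either direction, and among brighter genes 3.3% did. The 12 dimmer interferon genes had a median difference of 0.27, with 9 of them higher. Dimmer genes in general had a median of -0.02, with 48.7% higher. The 31 interferon genes of 50 units or more had a median difference of 0.12, with 20 of them higher. Brighter genes in general had a median of 0.02, with 53.1% higher.

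For the Atmp38dKO-labelled array minus WT the list lay close to genes in general. The median difference was 0.03 beside 0.02 over all 30456 genes tested, and 22 of 43 interferon genes (51.2%) were higher beside 52.2% of all genes. Oasl1 alone was at least 2-fold higher, where 4.02% of all genes were, and no interferon gene was at least 2-fold lower, where 4.49% of all genes were.

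For the Atmp38dKO-labelled array minus AtmsKO the median difference was -0.16, beside -0.00 over all genes, and 15 of the 43 interferon genes (34.9%) were higher beside 49.5% of all 30017 genes tested. None was at least 2-fold higher (3.75% of all genes) and 2 were at least 2-fold lower (3.72% of all genes), which were Ifit1 and Znfx1. This comparison and the one of AtmsKO with WT share the AtmsKO array, so a high reading there enters both. With the normexp background correction the median here was -0.10 beside -0.07 over all genes, with 32.6% of interferon genes and 35.8% of all genes higher. Genes in general moved most in share, from 49.5% to 35.8%, and the interferon genes only from 34.9% to 32.6%. The closer values under this setting thus came in part from a shift of genes in general.

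**Figure D2:**
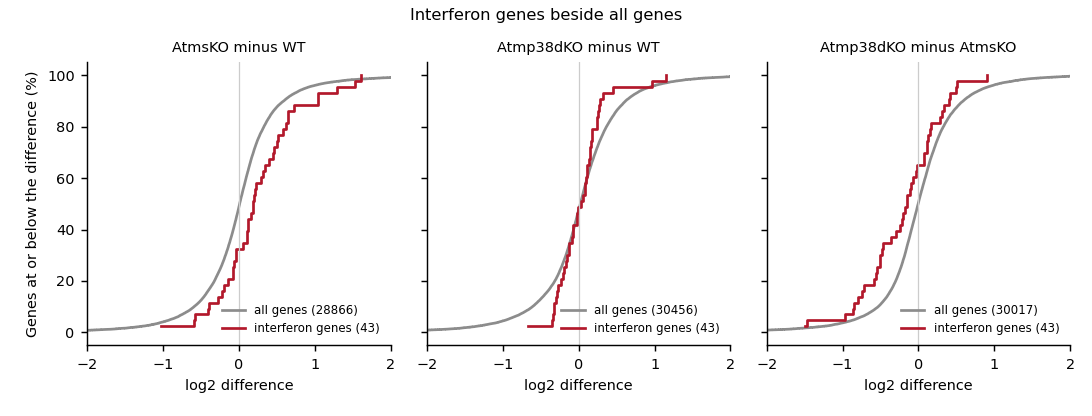
Cumulative share of genes (%) against the log2 difference for each comparison, for the 43 interferon genes (red) and all genes tested (grey). For AtmsKO minus WT the red curve runs to the right of the grey one (medians 0.19 and 0.01), for the Atmp38dKO-labelled array minus WT both curves cross near 0 (0.03 and 0.02), and for the Atmp38dKO-labelled array minus AtmsKO the red curve runs to the left (median -0.16).

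The other probes of the interferon genes were then set beside the brightest ones. For AtmsKO minus WT, 30 other probes were well above background on both arrays, and 17 of them (56.7%) differed in the direction of the brightest probe, where 53% of 11920 other probes of all genes did. The shares were 53.3% of 30 for the Atmp38dKO-labelled array minus WT and 51.6% of 31 for it minus AtmsKO (all genes 53.5% and 54.4%). Of the 22 interferon genes with more than 1 such probe, 9 had all of them on the same side for AtmsKO minus WT. These were Stat2, Isg20, Oasl1, Iigp1 and Tap1 on the higher side and Irf1, Irgm1, Xaf1 and Adar on the lower side, where a further Xaf1 probe, not well above background in WT, lay on the higher side. When each gene was read by its next brightest probe instead, 10 of the 23 genes that could be tested were higher on the AtmsKO array and the median was -0.05. At their brightest probes 15 of the 22 genes with more than 1 such probe were higher, so that in this part of the list the shift was seen at the brightest probes and not at the next brightest. Ifi44 was also among the 23, through a probe well above background on the WT array alone. The other 21 genes, of which 14 were higher, had no further probe well above background on both arrays. With the mean of all detected probes 60.5% of the 43 genes were higher and the median was 0.10 (all genes 51.2% and 0.01).

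**Figure D3:**
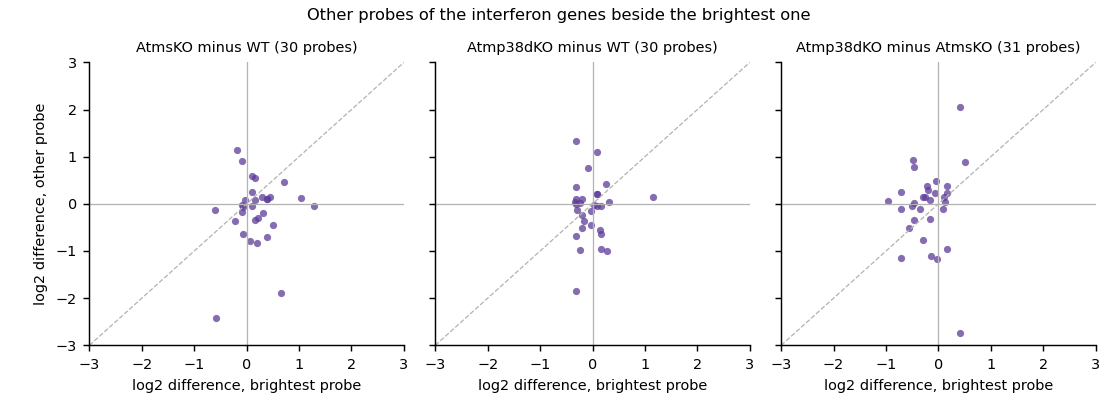
Log2 difference at each other probe of an interferon gene (vertical axis) against that at its brightest probe (horizontal axis), for probes well above background on both arrays (30, 30 and 31 probes). The dashed line marks equal differences, and the points lie on both sides of 0 on the vertical axis whatever the sign at the brightest probe, with 17, 16 and 16 probes on the same side.

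Among the regulators, Stat2, which carries the type I signal to the nucleus, read 129 units in WT, 201 in AtmsKO and 168 in Atmp38dKO-labelled cells. Its other probe, farther along the messenger RNA, had 129, 169 and 145. The AtmsKO array was the highest at both probes, with log2 differences of 0.72 and 0.47 against WT, and against WT the Atmp38dKO-labelled array differed by 0.17 and -0.04. The Stat2 probes lie on chromosome 10 (mm9), the brighter one spanning a splice junction between 127719861 and 127720302 and the other at 127729834 to 127729893. Neither difference for AtmsKO reached 2-fold. The scanner error at the brighter probe was 0.20, which covers the array only and no spread between mice.

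Irf7, the factor that amplifies type I interferon output, read 59.7 units in WT, 138 in AtmsKO and 86.7 in Atmp38dKO-labelled cells. AtmsKO thus exceeded WT by 1.29 on the log2 scale, and the Atmp38dKO-labelled array exceeded it by 0.32. The other Irf7 probe, on the same RefSeq messenger RNA, gave 59.3, 54.8 and 70.3, a difference of -0.04 for AtmsKO. Its probes lie on chromosome 7 (mm9), the brighter at 148449104 to 148449163 farther toward the 3′ end of the message and the other between 148450664 and 148451014 across a splice junction. Of these probes, only the one nearer to the 3′ end read high in AtmsKO.

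Irf8, a factor of myeloid and dendritic cells, was dim throughout, with 6.17, 12 and 9.8 units in the same order. It was 2.06-fold higher on the AtmsKO array, from a signal close to the lowest that the scanner flags as detected (5.33 units on the WT array), and its other probe was not detected on any array. Irf9, the DNA-binding part of the complex with Stat2, had signals of 296, 320 and 339, and the differences from WT were 0.19 and -0.02. Its other probe, with 82.7, 44.4 and 70.5 units, was at -0.82 and -0.44, opposite in sign for AtmsKO. Irf1, an early target of interferon gamma, had 895, 725 and 848, and was lower than WT by 0.23 and 0.29 at this probe. Irf2, which restrains the type I response in HSCs, had 293, 270 and 372, with differences of -0.04 and 0.13.

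Of the 4 sensors, 2 were higher and 2 lower on the AtmsKO array than on WT. Znfx1, a helicase that senses viral RNA, read 16.9 units in WT, 48.6 in AtmsKO and 21.2 in Atmp38dKO-labelled cells, and its difference of 1.60 for AtmsKO was the largest among the 43 genes. It was read by 1 probe (chromosome 2, 166861354 to 166861413, mm9). Ddx58, the sensor RIG-I, had 230, 287 and 214, with differences of 0.39 and -0.32 from WT. Of its 3 other probes, 1 fell on the opposite side for AtmsKO. For the Atmp38dKO-labelled array minus WT these 3 probes were at 0.36, -1.85 and -0.01. Ifih1, the sensor MDA5, had 119, 99.1 and 110, lower than WT on both arrays (-0.19 and -0.34), whereas its other probe, with 8.37, 17.6 and 9.98 units, was at 1.15 and 0.04. Zbp1, which senses nucleic acids in the Z form, had 808, 744 and 961, and stayed within 0.08 on the log2 scale across the arrays.

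Among the antiviral effectors the neighbouring Ifit genes, which bind viral RNA and block its translation, did not share a direction. Ifit1 read 14.1 units in WT, 38.6 in AtmsKO and 17.1 in Atmp38dKO-labelled cells, 2.88-fold higher for AtmsKO. Ifit3 had 30.8, 14.3 and 32.8, lower on the AtmsKO array by 1.03 on the log2 scale. Ifit2 had 33.7, 44.1 and 76.3, with differences of 0.46 and 0.96, so that the highest array differed between the genes of this cluster. Each of them was read by 1 probe.

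Rsad2, the antiviral enzyme viperin, had 192, 284 and 250 at its brightest probe, a difference of 0.65 for AtmsKO. Its other probe gave 39.4, 10.1 and 23.5, a difference of -1.89, so its probes point opposite ways. Mx2, a GTPase whose family is known to be defective in most laboratory mouse strains, had 17.5, 24.7 and 16.8. At their brightest probes the remaining effectors had differences from WT of 0.16 and -0.31 for Samhd1, -0.41 and -0.01 for Bst2, 0.18 and -0.33 for Mx1, and 0.29 and 0.28 for Isg20. The other Isg20 probe, with 177, 186 and 102 units, was at 0.15 and -1.01, so it was opposite in sign on the Atmp38dKO-labelled array. The 3 other Samhd1 probes detected on all arrays were at -0.69, 0.11 and 1.34 for the Atmp38dKO-labelled array minus WT, on both sides of 0.

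The OAS enzymes make a messenger that starts RNA decay when double-stranded RNA is present, and 6 of the 7 genes of this group and its RNA enzymes were higher on the AtmsKO array than on WT. Oasl1, which restrains translation of Irf7, read 11.4 units in WT, 22.1 in AtmsKO and 29.4 in Atmp38dKO-labelled cells. It was the only gene of the list past 2-fold on both mutant arrays (1.04 and 1.16), with 0.12 and 0.15 at its other probe. Both comparisons share the WT array, whose reading was the low one. Oas3 had 278, 376 and 253, with differences of 0.51 and -0.35. Eif2ak2, the kinase PKR that stops translation, had 304, 441 and 322, with differences of 0.62 and -0.13. Adar, which edits double-stranded RNA and keeps it from being sensed, went the other way with 216, 135 and 236 (-0.60 and -0.09), and its other probe, with 26.5, 22.9 and 51.8 units, was lower in AtmsKO (-0.13) but higher on the Atmp38dKO-labelled array (0.75). For Oas2, Oas1a and Oasl2 the differences for AtmsKO lay between 0.10 and 0.31, and the other Oas2 probe was at -0.19.

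In the Isg15 system, Isg15 itself, a ubiquitin-like modifier, read 225 units in WT, 232 in AtmsKO and 164 in Atmp38dKO-labelled cells. It was thus similar on the first 2 arrays (0.12) and lower on the third, with log2 differences of -0.67 against WT and -0.80 against AtmsKO, and no other of the 43 genes lay as far below WT there. Usp18, the protease that removes Isg15 from proteins, had 12.8, 11 and 16.4. Trim25, a ligase that activates RIG-I, had 90505, 92193 and 91512 at its brightest probe, which was designed on another sequence record, while its 2 probes on the RefSeq message had 273, 309 and 221 and 3502, 3218 and 4366. Whether the brightest of these 3 probes reads Trim25 alone was not tested.

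Of the 5 other induced genes, 3 were higher and 2 lower on the AtmsKO array than on WT. Xaf1, a proapoptotic factor, had 239, 151 and 248 at its brightest probe (-0.58 and -0.17). Of its other probes, 1 read 6.08 units in WT, where it was not well above background, 43.6 in AtmsKO and 8.01 in the third, and the other had 51.6, 9.06 and 46.4, so that Xaf1 cannot be given a direction from these arrays. At their brightest probes Ifi44, Parp14, Ifi35 and Parp9 differed from WT by between -0.08 and 0.26 on both arrays. Their other probes spread more widely. The other Ifi35 probe, with 53.5, 29.3 and 39.6 units, was at -0.79 and -0.65, and that of Parp14 at -0.31 and -0.16. Of the 3 other Parp9 probes, 1 was at 0.91 for AtmsKO, with 76.6, 136 and 86.1 units. The other Ifi44 probe read 24.7 units in WT and was not well above background on either mutant array.

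The interferon-inducible GTPases, which attack vacuoles that hold pathogens, were mixed. Igtp read 134, 199 and 167 units in the order used above, with differences of 0.65 and 0.10. Iigp1 had 88.2, 114 and 121 (0.45 and 0.25) at its brightest probe, which was designed on another sequence record. Its probe on the RefSeq message had 24.1, 25.1 and 37.7 (0.14 and 0.43). Gbp3 (16.9, 12.2 and 18.5), Gbp2 and Irgm1 were lower than WT on the AtmsKO array, by 0.39, 0.27 and 0.07. Of the other Irgm1 probes, 1 was at -0.65 for AtmsKO and -0.97 for the Atmp38dKO-labelled array, with 54.5, 32.9 and 32.3 units.

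The antigen processing genes, whose products cut peptides in the immunoproteasome and load them on MHC class I, lie near each other on chromosome 17. Tapbp, which encodes the loading factor tapasin, had 6154, 8270 and 7891 (0.50 and 0.14), although its other probe was lower on both mutant arrays (-0.45 and -0.55). Psmb9 had 1772, 2137 and 2435, and Psmb8 had 1136, 1026 and 1591, both catalytic subunits of the immunoproteasome. All 4 genes of this group, Tap1 among them, were higher on the Atmp38dKO-labelled array than on WT at their brightest probes, by 0.08 to 0.27 on the log2 scale. The other Tap1 probe, with 47.6, 68.4 and 117 units, was at 0.60 for AtmsKO and 1.09 for the Atmp38dKO-labelled array, in the same direction and larger than at the brightest probe (0.11 and 0.08).

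**Figure D4:**
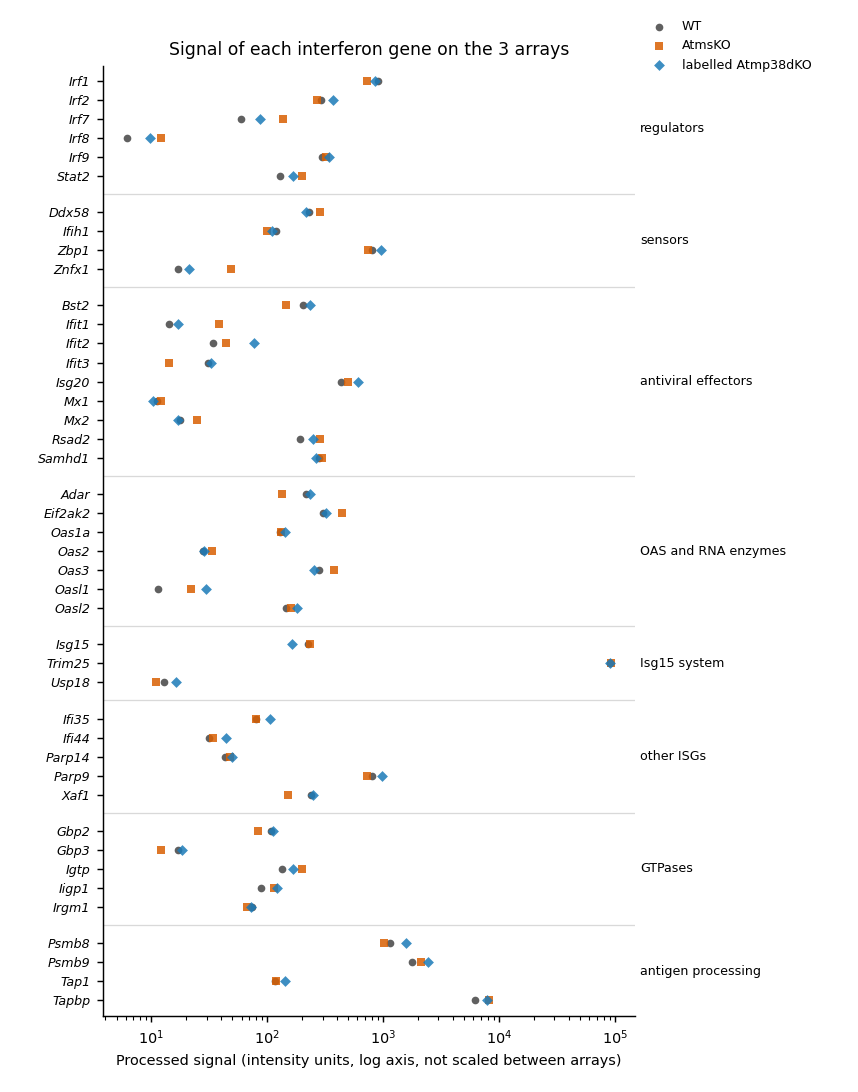
Processed signal (intensity units, logarithmic horizontal axis) of the brightest probe of each of the 43 interferon genes, grouped by role, with circles for WT, squares for AtmsKO and diamonds for the Atmp38dKO-labelled array. For most genes the 3 symbols nearly coincide, and they lie farthest apart for Znfx1 and Ifit1, where the AtmsKO array reads 48.6 and 38.6 units.

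**Figure D5:**
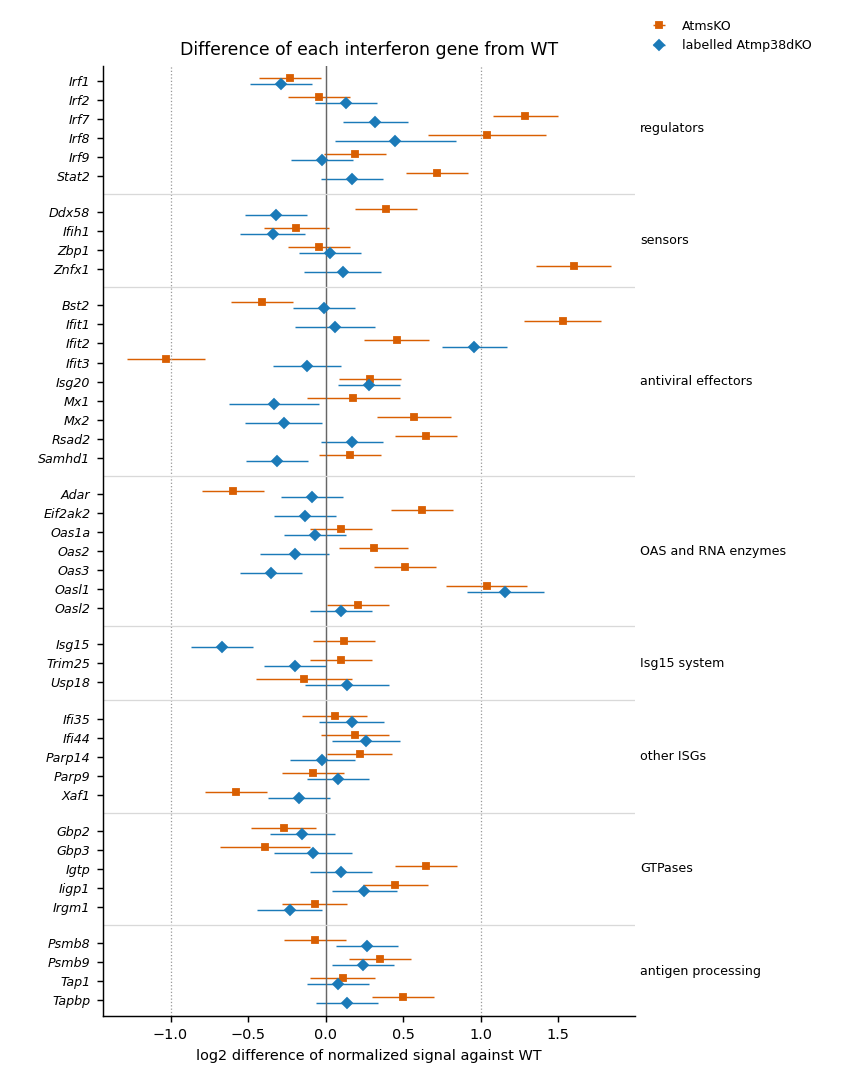
Log2 difference of normalized signal from WT for each gene, for the AtmsKO (squares) and Atmp38dKO-labelled (diamonds) arrays, with dotted lines at 2-fold. The bars are the error of the scanner's error model, which covers the array only, and Znfx1, Ifit1, Irf7, Oasl1 and Irf8 lie beyond the upper line and Ifit3 beyond the lower line for AtmsKO.

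The rest of the pathway was described from lists of 114 further genes on the array. Of 105 that could be tested for AtmsKO minus WT, 2 were at least 2-fold higher and 2 at least 2-fold lower, where 3.94% and 4.09% of all genes were, and their median difference was -0.00. Receptors and kinases were mostly lower on the AtmsKO array, with 9 of 11 below WT and a median of -0.22, where 51% of all genes were above WT. Of these 11, 6 were lower by more than 0.2. None of them reached 2-fold. Of the 7 brakes on the pathway, among them Socs1 and Socs3, 6 were below WT on the AtmsKO array, with a median of -0.17. Only 2 of the 7 were lower by more than 0.2.

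A wider group of 64 interferon-stimulated genes had a median difference of 0.05 for AtmsKO minus WT, with 37 of 60 tested genes higher (all genes 51%). The median was 0.01 for the Atmp38dKO-labelled array minus WT. Phf11d was at least 2-fold higher on both mutant arrays, with signals of 29.6, 59 and 94, Slfn2 was lower on the AtmsKO array with 22.3, 7.96 and 18.8, and Trim34a was higher on the Atmp38dKO-labelled array with 116, 158 and 283. Among the ligands, 4 of 16 were not well above background on any array. Ifna14, a type I interferon from a family of near-identical genes that a probe may not separate, had 27.3, 59.7 and 32.2. Ifng was well above background on the WT array alone, with 15.1 units, and was at least 2.34-fold lower on the AtmsKO array and at least 3.52-fold lower on the Atmp38dKO-labelled array. Irf4, a factor of lymphoid cells, was at least 2-fold lower on the Atmp38dKO-labelled array than on either other array (-1.05 against WT).

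Markers of other blood cells were read on the same arrays. The megakaryocyte list (5 of 5 genes well above background everywhere) had a summed signal of 16.3 times the array's 75th percentile in WT, 30.5 times in AtmsKO and 19.1 times in Atmp38dKO-labelled cells, so it was also highest on the AtmsKO array. Within it, Pf4, the platelet factor, had 1020, 2366 and 1536, Gp9 had 108, 103 and 125, and Itga2b, which encodes CD41, had 169, 120 and 167. The median difference of these 5 genes for AtmsKO minus WT was 0.01, with 3 of them higher. The granulocyte list (8 of 8 genes) had summed signals of 30.5, 35.9 and 35.4. For AtmsKO minus WT 7 of the 8 genes were higher, with a median of 0.28. For the Atmp38dKO-labelled array minus WT 6 of 8 were higher, with a median of 0.16. Elane, with the largest differences of this list, had 42.4, 77.6 and 93.8, while Prtn3 had 320, 302 and 376 (-0.01 and 0.02). The dendritic list had 33.5, 34.7 and 31.0 and the monocyte and macrophage list 29.7, 25.6 and 24.3, where Ccr2 was not well above background on any array. Erythroid, B cell, T and NK cell, and endothelial and stromal lists had sums of 2.73 to 6.89 on all arrays. The part of these cell types in the differences of interferon genes was not tested.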

How the data were processed

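RNA of sorted LT-HSCs was labelled with Cy3 and hybridized to 1-colour Agilent arrays, 1 per genotype. The authors' contractor extracted the deposited intensity values with Agilent Feature Extraction 11.5.1.1 (background subtraction, detrending, surrogate values for dim spots, no normalization between arrays). The file headers place probes on mm9. A deposited table by the authors holds log2 values, which equal log2 of the processed intensity minus the 75th percentile of the array within 0.02, after a constant shift of 0.005 to 0.006, for 99.8% to 100% of probes.

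Control and outlier spots were left out, spots of a probe were averaged (56600 probes), and log2 signal was scaled to the 75th percentile of non-control probes. A probe passed the background flag if it was set for over 50% of spots. Values of failing probes were raised to the lowest passing signal of the array, unless already higher. Genes were taken by the name in the files. A gene was called if it differed at least 2-fold and passed on the brighter array, and counted as tested if it passed on either array. No p-value was computed. Signals of the 6 regulators, of each called gene and of up to 3 further genes per role with the widest range are given, and others by value or range. The result of 1 gene on the pathway lists is not reported here. The interferon genes and all lists were chosen with earlier results of these data known. Alternatives were normexp background (limma 3.58.1, offset 50), other scalings, floors, filters, probes and folds. Functions were tested on simulated data. Python 3.11.15, pandas 2.3.3 and numpy 2.4.6 were used.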

Additional observations from a re-analysis of the deposited data

How the results depend on the processing

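With 1 array per group, no array could be left out, and precision is limited by their number. No paired analysis was possible because 1 array stands for each genotype and nothing was tested. Of 114 summary values under 10 alternatives, 87 stayed close to the main value and 27 moved. Because all interferon genes passed the background flag on every array, changing the floor or the filters could not alter their values. The authors' table holds nearly the same values, and scaling to the median of detected probes shifts all genes of an array alike. Under each of these settings all 12 values stayed close, so the 87 include values with little or no room to move. The 27 came from normexp, quantile normalization, the other probe choices and the fold of 1.5. With the normexp background no interferon gene passed 2-fold in any comparison. For AtmsKO against WT 0 were higher and 0 lower (all genes 0.402% and 0.36%). For the Atmp38dKO-labelled array 0 were higher against WT (all genes 0.289%) and 0 lower against AtmsKO (all genes 0.476%). This setting adds 50 units to every signal, which shrinks the differences of dim genes. Znfx1 went from 1.60 to 0.55 for AtmsKO against WT, so the setting cannot decide whether calls of dim genes hold. The medians were 0.11 for AtmsKO and -0.06 for the Atmp38dKO-labelled array against WT (all genes 0.02 and -0.04). Between the mutant arrays the median was -0.10 (all genes -0.07). Under quantile normalization 0 interferon genes were at least 2-fold lower for AtmsKO against WT (all genes 3.73%). With the mean of all detected probes of a gene, 3 were at least 2-fold higher for AtmsKO against WT (all genes 3.36%), with a median of 0.10 (all genes 0.01). The Atmp38dKO-labelled array against WT had 0 higher and 1 lower by 2-fold (all genes 3.52% and 4.02%) and a median of -0.08 (all genes 0.02). With the next brightest probe, AtmsKO against WT had 1 higher by 2-fold, 3 lower, 10 of 23 higher by any amount and a median of -0.05 (all genes 4.67% and 5.39% past 2-fold, 49.7% higher), the Atmp38dKO-labelled array against WT had 2 higher, 2 lower and 10 of 26 higher by any amount (all genes 5.16%, 5.73% and 50.9%), and against AtmsKO 2 of 25 were higher (all genes 4.61%) with a median of 0.03. There, Irf7 was at -0.04 for AtmsKO against WT, opposite to its brightest probe. At a fold of 1.5, 9 were higher and 2 lower for AtmsKO (all genes 10.1% and 10.2%), 2 and 1 for the Atmp38dKO-labelled array against WT (11% and 10.6%), and 1 and 9 against AtmsKO (10.1% and 8.81%). Why the probes differ was not tested.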
